A study of Mus musculus with 9 samples.

Results

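Map3k12, Sox11, Gap43, Sprr1a, Klf4, Klf6, Klf7, Klf9, Stat3 and Socs3 are genes that regulate or mark the response of a neuron to axon injury and its capacity to regrow. The set was chosen by gene symbol, with earlier results of these data known, and all 10 were present among the 23997 symbols of each library. Their expression was followed in retinal ganglion cells (RGCs), the neurons whose axons form the optic nerve, from C57BL/6J mice with normal or elevated intraocular pressure (IOP). Eyes were injected at 6 weeks of age, and the labels give the animals as 8 weeks old at collection. Control eyes received saline. Mild IOP and Moderate IOP eyes received microbeads into the anterior chamber and were sorted afterwards by the size of their IOP increase over 2 weeks, the smaller increase being Mild IOP. RGCs were purified by immunopanning, in which lectin and antibody plates first remove other cells and a Thy1.2 antibody plate then retains RGCs, with actinomycin D present to block new transcription. All retinas of a group gave 1 pool of RNA, with fewer retinas in the Moderate IOP pool, and from it came 3 technical replicates. The 9 libraries therefore compare 3 pools, and every standard error and p-value below covers technical variation, not variation between animals. Sorting of the microbead eyes by their IOP, the pool and the treatment cannot be told apart.

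When an axon is damaged, the kinase DLK (encoded by Map3k12) activates JNK and, through the transcription factor Jun, a program that includes Sox11, Atf3 and growth-associated proteins. GAP43 is a growth cone protein of extending axons, and SPRR1A is a small proline-rich protein of stratified epithelia that injured neurons also produce. Krüppel-like factors set growth capacity in both directions: KLF4 and KLF9 restrain axon growth of RGCs, whereas KLF6 and KLF7 promote it. STAT3 carries signals of CNTF, LIF and related cytokines to the nucleus, and SOCS3, which STAT3 itself induces, shuts the receptor down. Loss of SOCS3 in RGCs is known to permit regrowth of the optic nerve.

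The promoters of Sprr1a, Socs3 and Stat3 are shown because these genes had the largest log2 differences of the set between Moderate IOP and Control. RefSeq promoter windows on GRCm38.p6, the assembly of mm10, run from 250 bases before to 50 bases after the start of transcription and matched 9 of the 10 genes by symbol, Gap43 being the other, with a pair of start sites for Map3k12. They are written 5′ to 3′ on the strand of the gene, and capitals mark matches to the STAT motif TTCNNNGAA or the AP-1 motif TGANTCA, both palindromes and so searched on both strands at once. AP-1 is the dimer that contains Jun. The Sprr1a window is chr3:92485832-92486131 on the minus strand, the Socs3 window chr11:117969317-117969616 on the minus strand and the Stat3 window chr11:100939491-100939790 on the minus strand.
Sprr1a: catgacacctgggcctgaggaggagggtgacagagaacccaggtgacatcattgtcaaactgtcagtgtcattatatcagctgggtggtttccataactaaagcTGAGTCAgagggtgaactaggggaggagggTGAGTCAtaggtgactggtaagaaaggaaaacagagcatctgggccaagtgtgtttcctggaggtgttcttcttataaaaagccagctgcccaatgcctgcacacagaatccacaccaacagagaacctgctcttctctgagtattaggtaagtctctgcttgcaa
Socs3: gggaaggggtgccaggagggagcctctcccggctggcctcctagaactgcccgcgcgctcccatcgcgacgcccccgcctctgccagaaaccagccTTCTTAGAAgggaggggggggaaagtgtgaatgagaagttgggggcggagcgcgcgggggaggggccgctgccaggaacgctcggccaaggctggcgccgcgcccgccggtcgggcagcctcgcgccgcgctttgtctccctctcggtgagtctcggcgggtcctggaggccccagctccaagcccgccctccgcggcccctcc
Stat3: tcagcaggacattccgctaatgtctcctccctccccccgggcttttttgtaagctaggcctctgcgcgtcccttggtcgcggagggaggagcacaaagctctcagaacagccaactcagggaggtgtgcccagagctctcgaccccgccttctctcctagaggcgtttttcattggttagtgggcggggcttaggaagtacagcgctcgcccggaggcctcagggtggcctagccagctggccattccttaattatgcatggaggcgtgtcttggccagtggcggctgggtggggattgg
The Sprr1a window held 2 AP-1 matches, both with the letters TGAGTCA, and no other window of the set held more than 1. The Socs3 window held 1 STAT match, TTCTTAGAA, and the Stat3 window held no match to either motif. The window of Klf9 held 1 match to each, and the windows of Map3k12, Sox11, Klf4, Klf6 and Klf7 held none. Over all 32544 promoter windows of this length, 8.33% held the STAT motif and 7.79% the AP-1 motif. The GC box GGGCGG, a binding sequence of SP and KLF proteins, was searched on both strands as well and was found in 35.9% of all windows. It was present in the windows of Map3k12, Sox11, Klf4, Klf6, Klf7, Stat3 and Socs3, with 4 matches at Klf4, and not in those of Sprr1a and Klf9. These matches describe letters in a window, not bound sites.

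The values are FPKM as the authors deposited them, that is, the fragments of a transcript per kilobase of its length and relative to all mapped fragments, divided here by a library factor between 0.983 and 1.058. The depth derived from the authors' confidence bounds lay between 4840000 and 8800000 fragments per library. Summed levels of 13 RGC markers, among them Rbpms, Thy1, Sncg and Nefl, ran from 1737 to 1865 scaled FPKM in Control, from 1294 to 1595 in Mild IOP and from 2613 to 2831 in Moderate IOP. The groups thus did not overlap in their RGC marker level. Sncg alone made up between 39.1% and 53.6% of this sum in each library. The other 12 markers summed to between 820 and 934 in Control, 787 and 895 in Mild IOP and 1256 and 1406 in Moderate IOP, so that Control and Mild IOP overlapped without Sncg. Not all markers followed the sum, and the transcription factors Pou4f2 and Pou4f3 had means of 9.51 and 3.69 in Control and 8.91 and 3.09 in Moderate IOP. Other transcription factors of the list went the other way, with means of 18.1 for Pou4f1 and 11.8 for Isl1 in Control and 30.3 and 15.05 in Moderate IOP. Every Moderate IOP replicate of Pou4f1 was above every Control replicate, while those of Isl1 overlapped. In bulk RNA, more cells of a type and more RNA per cell cannot be told apart. Markers of other retinal cells were present too and differed between groups. The sum over 9 amacrine markers was between 1390 and 1434 scaled FPKM in Control, 1447 and 1624 in Mild IOP and 1003 and 1158 in Moderate IOP, where 2 of 8 tested were lower than in Control and 4 lower than in Mild IOP (limma, FDR below 0.1). Of all tested genes, 0.889% and 3.12% were called lower in these comparisons. Over 8 rod markers the sum was between 522 and 618 in Control, 387 and 405 in Mild IOP and 376 and 408 in Moderate IOP, with 2 and 3 of 8 lower than in Control. Of all tested genes, 0.399% were called in either direction in Mild IOP and 0.889% were called lower in Moderate IOP. Lens markers, 6 in number, summed to between 214 and 280 in Control and to at most 2.57 in the other groups. The part of these shifts in the differences below was not tested.

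The 10 genes covered a wide range of levels. Gap43 was the highest, with a mean of 169.7 ± 35.8 scaled FPKM (SD, n = 9 libraries), above 97.5% of all symbols. Klf6 followed at 86.9 ± 19.3, Klf9 at 33.6 ± 2.83, Klf7 at 25.05 ± 6.34, Map3k12 at 12.7 ± 1.93 and Stat3 at 11.5 ± 5.06. Socs3 and Sprr1a lay at 1.78 ± 1.87 and 1.76 ± 2.74, and Sox11 and Klf4 at 0.138 ± 0.126 and 0.132 ± 0.157. The ranges over the 9 libraries overlapped for Gap43 and Klf6, for Klf9 and Klf7, for Map3k12 and Stat3, and among the 4 lowest genes, so that only the steps from Klf6 to Klf9, from Klf7 to Map3k12 and from Stat3 to Socs3 separated neighbors without overlap. A mean of at least 0.5 scaled FPKM, required for testing, was reached by 8 of the 10 genes, Sox11 and Klf4 being below it. Sprr1a passed this filter only through its Moderate IOP libraries.

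**Figure D1:**
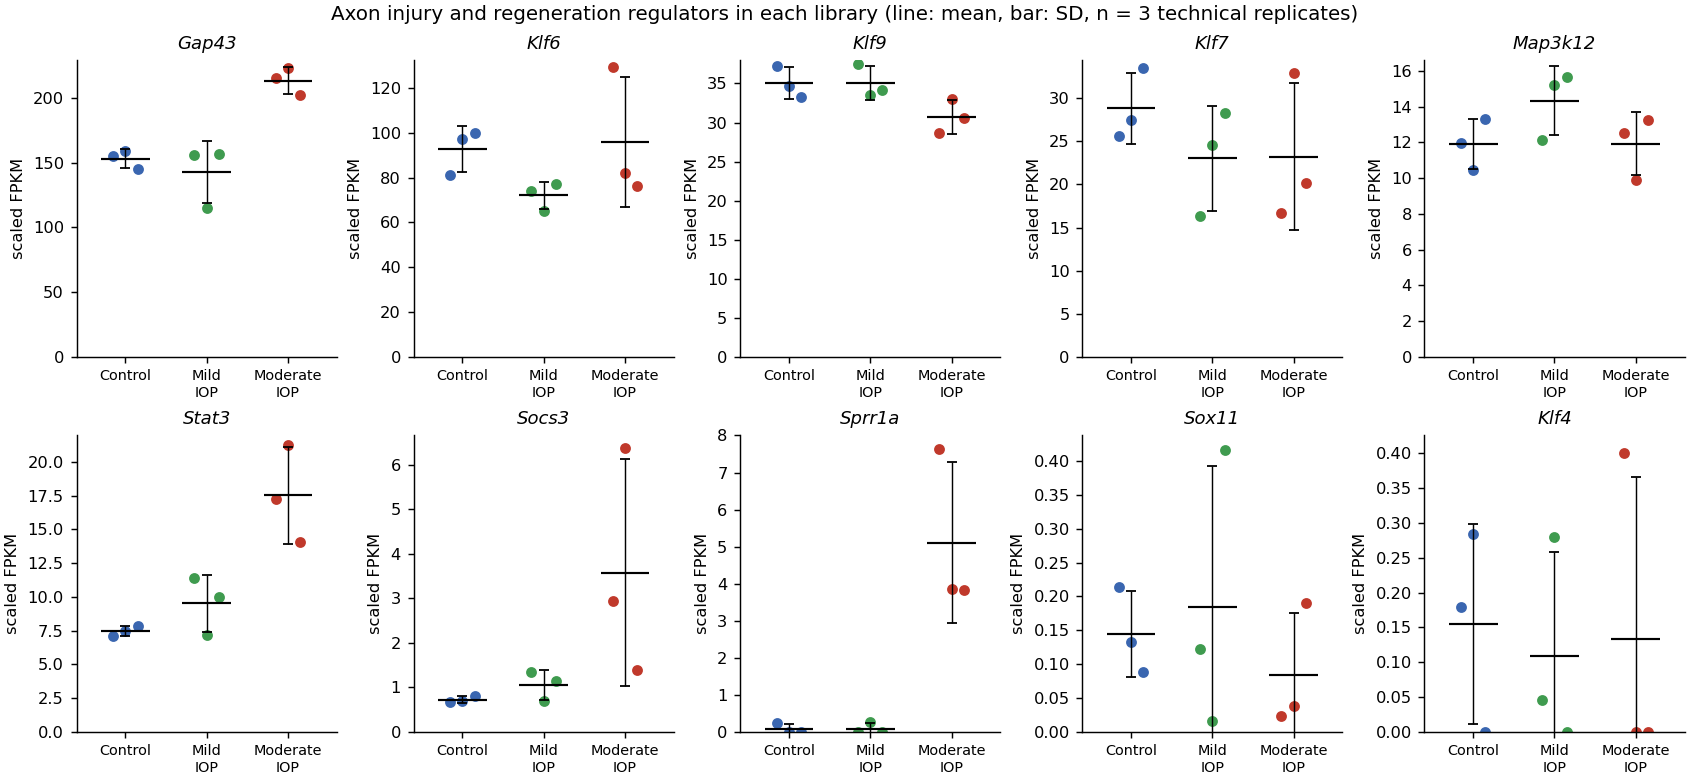
Scaled FPKM (y axis, linear and from 0) of the 10 genes in each of the 9 libraries, ordered by mean level, with points for technical replicates 1 to 3 from left to right, a horizontal line for the group mean and a bar for the SD. The 3 Moderate IOP points lie above all Control and Mild IOP points for Gap43, Stat3, Socs3 and Sprr1a, whereas the groups overlap for Klf7, Map3k12, Sox11 and Klf4.

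Counted over the set, 0 of the 8 tested genes were called in Mild IOP against Control by limma at a false discovery rate (FDR, Benjamini-Hochberg) below 0.1, where 0.399% of 13043 tested genes were called, and 0 of the 8 had an unadjusted p below 0.05, which 10.2% of all tested genes had. In Moderate IOP against Control, 2 of 8 were called, Sprr1a and Stat3, both higher, where 1.84% of all tested genes were called and 0.951% were called higher. As Sprr1a was tested only because of the group in which it is high, the count without it was 1 of 7 here and 2 of 7 between Moderate and Mild IOP. Between Moderate and Mild IOP, 3 of 8 were called, Sprr1a, Stat3 and Gap43, all higher in Moderate IOP, where 10.2% of all tested genes were called and 7.03% were called higher. Every Moderate IOP replicate lay above every Control replicate for 4 of the 8 genes, Gap43, Sprr1a, Stat3 and Socs3, as for 9.95% of all tested genes. The same 4 lay above every Mild IOP replicate, as did 14.5% of all. Sprr1a was tested only through these Moderate IOP libraries, so its place in this count is no support. Without it Gap43, Stat3 and Socs3 remain, of 7 genes, in both comparisons. Klf9 lay below in every Moderate IOP replicate, as did 9.48% of all genes against Control and 13% against Mild IOP. Klf6 lay below Control in every Mild IOP replicate, as did 9.13% of all genes. Moderate IOP enters both of its comparisons, and Control libraries serve both IOP groups. The set and the lists below were chosen with earlier results of these data known, so the counts beside shares of all genes describe them and do not test them.

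**Figure D2:**
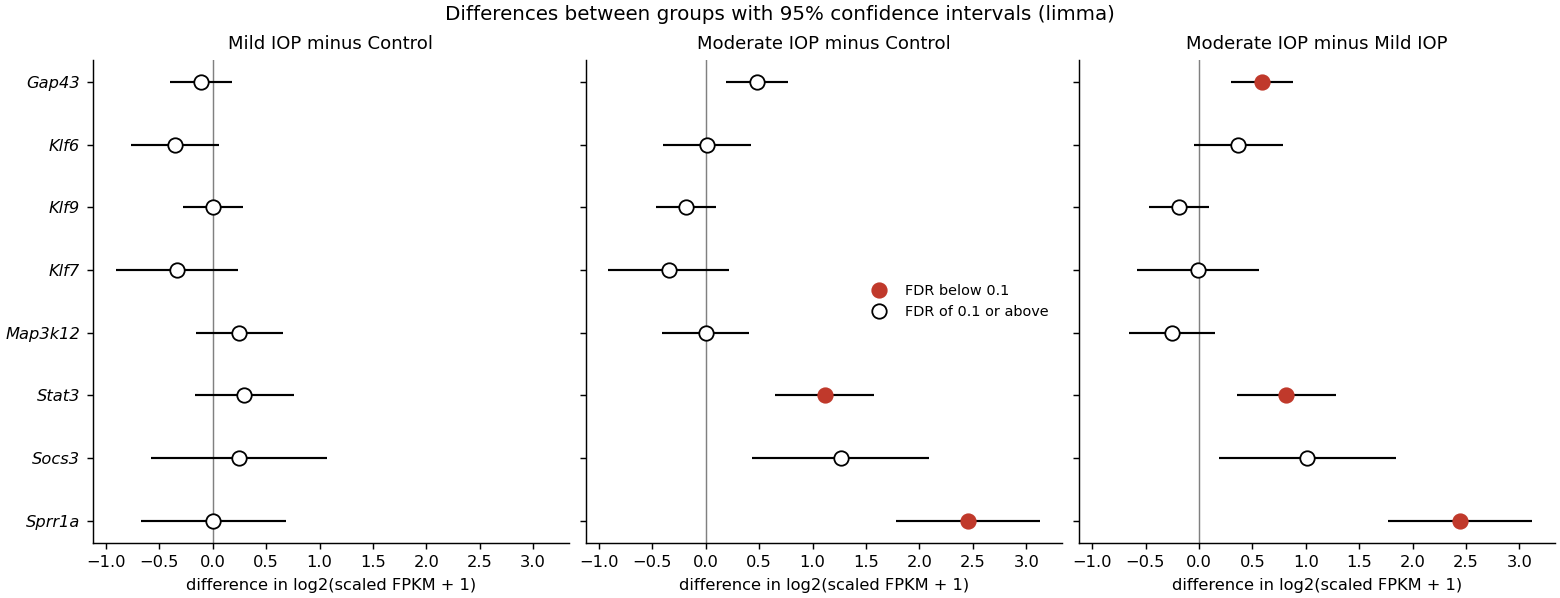
Difference in log2(scaled FPKM + 1) for the 8 tested genes (rows, by mean level) in the 3 comparisons (panels), with 95% confidence intervals as lines and filled points for an FDR below 0.1 (limma). Sprr1a and Stat3 are filled in both panels with Moderate IOP, Gap43 only in the comparison with Mild IOP, and every interval of the panel of Mild IOP against Control includes 0.

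Sprr1a was the gene of the set with the largest difference. It lies on chromosome 3 of mm10, from 92483954 to 92485881. Its Control replicates were at 0.239, 0 and 0 scaled FPKM, those of Mild IOP at 0, 0.253 and 0, and those of Moderate IOP at 7.62, 3.87 and 3.83. It was thus nearly absent from Control and Mild IOP, with 1 fragment in all 3 libraries of each group, and present in every Moderate IOP replicate, with 21, 20 and 13 fragments. Relative to depth, the fragments were 58.2 times as many in Moderate IOP as in Control (exact 95% Clopper-Pearson interval 10.01 to 2342) and 51.6 times as many as in Mild IOP (8.87 to 2075), where these intervals cover counting error only. On the log2(scaled FPKM + 1) scale, which understates the change of a low gene, Sprr1a rose by 2.45 from Control to Moderate IOP (SE 0.31, FDR = 0.0050, limma) and was 2.45 above Mild IOP (SE 0.31, FDR = 0.0040). With a pseudocount of 0.1 in place of 1 these differences were 5.04 and 5.02. Its place among the tested genes came from the Moderate IOP libraries themselves. With no filter on low values, the FDR was 0.012 against Control and 0.014 against Mild IOP. The difference between Mild IOP and Control was 0.01, with a 95% interval from −0.67 to 0.68.

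The other genes of the Sprr family, which are neighbors of Sprr1a in the epidermal gene cluster, did not share this pattern. Of 13 listed, 12 were at 0 in every library, and the highest value of the remaining gene was 0.231, in Mild IOP, from 6 fragments. The 10 nearest genes on the chromosome, which include Sprr1b, Sprr3 and Ivl, were all below the filter, with a highest mean of 0.00838 scaled FPKM. Markers of surface epithelium (Krt5, Krt14, Krt12, Epcam and Cdh1) summed to between 0.118 and 1.80 in Moderate IOP and to between 0.457 and 1.15 in Control, with 2 of the 5 at 0 in every library. Their members went opposite ways. Krt12, a keratin of the corneal epithelium, was at 0.118, 0.391 and 1.76 in the Moderate IOP replicates, at most 0.125 in Control and at 0 in Mild IOP, whereas Epcam was at 0 in all Moderate IOP replicates and had means of 0.733 in Control and 0.705 in Mild IOP. Krt12 thus had its highest mean in the same group as Sprr1a, and its part in the result was not tested. Genes with the profile most like that of Sprr1a over the 9 libraries, by the mean absolute difference of centered log2 values, were Ccl21c (0.25), S100a16 (0.26) and Gm21541 (0.35). Ccl21c and Gm21541 belong to gene families with near-identical copies that can share reads, so their values are uncertain. S100a16, a calcium-binding protein, had means of 3.51 scaled FPKM (Control), 2.88 (Mild IOP) and 15.1 (Moderate IOP).

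Stat3 rose in Moderate IOP as well. The gene lies on chromosome 11 from 100886810 to 100939511. Its scaled FPKM was 7.12, 7.48 and 7.80 in the Control replicates, with 11.4, 7.21 and 9.96 for Mild IOP and 17.2, 21.3 and 14.1 for Moderate IOP. All Moderate IOP replicates were above all others, while Mild IOP replicate 2 lay within the Control range and Mild IOP replicates 1 and 3 above it. The group means were 7.47 ± 0.34, 9.51 ± 2.12 and 17.5 ± 3.62 (SD, n = 3). Moderate IOP exceeded Control by 1.11 on the log2 scale (SE 0.21, FDR = 0.041, limma) and Mild IOP by 0.82 (SE 0.21, FDR = 0.047). The difference between Mild IOP and Control was 0.29 (95% interval −0.17 to 0.76, FDR = 0.71). Leaving out Control replicate 1, Control replicate 2 or Moderate IOP replicate 2 took the call against Control above the threshold, with an FDR of up to 0.14 and a log2 difference that stayed at 0.97 or more. Against Mild IOP the same held without Mild IOP replicate 2, Moderate IOP replicate 1 or Moderate IOP replicate 2, with an FDR of up to 0.19.

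Socs3, the feedback inhibitor, had higher values in Moderate IOP but did not pass the test. It lies on chromosome 11 from 117966087 to 117969366. Control replicates were at 0.661, 0.684 and 0.805 scaled FPKM, Mild IOP replicates at 1.34, 0.686 and 1.14, and Moderate IOP replicates at 2.95, 6.38 and 1.39. Every Moderate IOP replicate was above every Control and Mild IOP replicate, by a narrow margin for replicate 3. These replicates came from the same pool, yet the counting interval of replicate 2, with a lower bound of 5.35 FPKM, was well above that of replicate 3, with an upper bound of 1.95 FPKM. The fragments were 38.9, 151 and 22 in the Moderate IOP replicates and between 11 and 17 in Control. The mean was 4.99 times that of Control, and the log2 difference was 1.26 (SE 0.38, 95% interval 0.44 to 2.09, FDR = 0.16, limma), or 1.92 with a pseudocount of 0.1. Without Moderate IOP replicate 3 the FDR was 0.080 against Control and 0.048 against Mild IOP. Without Moderate IOP replicate 2 the mean was 3.03 times that of Control, and the log2 differences were 0.84 against Control (FDR = 0.31, limma) and 0.59 against Mild IOP (FDR = 0.35). Over all 18 alternative fits the FDR reached 0.33 and 0.39.

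Of 23 other tested genes of JAK and STAT signalling, from a list of 27 receptors, kinases, STATs and inhibitors, 0 rose and 2 fell between Control and Moderate IOP, and 0 differed in Mild IOP by limma at an FDR below 0.1, where 1 had an unadjusted p below 0.05. Of all tested genes, 0.951% rose and 0.889% fell in Moderate IOP. Pias3, an inhibitor of activated STAT3, fell from 7.83 ± 0.36 scaled FPKM in Control to 3.71 ± 0.64, a log2 difference of −0.91 (FDR = 0.060, limma). Pias1, of the same family of SUMO ligases, fell from 52.9 ± 3.46 to 34.6 ± 1.63, a log2 difference of −0.60 (FDR = 0.049). The median log2 difference of the list was −0.14 in Moderate IOP, beside 0.004 over all tested genes. These calls depended on the fit: 0 genes of the list were called in Moderate IOP with the spread from the compared groups alone or without Control replicate 1, Control replicate 2 or Moderate IOP replicate 1. With the replicate number as a block, or without Mild IOP replicate 1, Moderate IOP replicate 2 or Moderate IOP replicate 3, 1 was called. In Mild IOP the smallest p was that of Jak2 (log2 difference 0.53, FDR = 0.49).

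Between Mild and Moderate IOP, 2 genes of the list were higher and 2 lower in Moderate IOP, as were 7.03% and 3.12% of all tested genes. Socs2, another cytokine-induced inhibitor, differed by 0.87 on the log2 scale (FDR = 0.049, limma), from 11.1 ± 2.41 scaled FPKM in Mild IOP to 21.0 ± 3.38 in Moderate IOP. Jak2, a kinase of the cytokine receptors, was lower in Moderate IOP (3.87 ± 1.23) than in Mild IOP (7.77 ± 1.24), a log2 difference of −0.87 (FDR = 0.058), with Control at 5.05 ± 0.26. Ptpn11, the phosphatase SHP2 that cytokine receptors recruit, was higher in Moderate IOP (25.1 ± 2.74) than in Mild IOP (16.2 ± 0.97), a log2 difference of 0.60 (FDR = 0.087). The fourth was Pias1 with −0.50, named here after its value was seen. Without Mild IOP replicate 1 or Mild IOP replicate 2, 1 gene of the list was called here, and without any single Moderate IOP replicate 2 were. Receptor genes were not among the calls. Il6st, the shared receptor subunit gp130, had 8.56 ± 2.19 in Control and 6.42 ± 1.02 in Moderate IOP (log2 difference −0.35, FDR = 0.55, limma). Cntfr, which binds CNTF, had 20.8 ± 3.00 and 14.6 ± 1.28 (log2 difference −0.48, FDR = 0.23). Lifr, the receptor of LIF, went the other way, with 0.622 ± 0.250 and 1.24 ± 0.11 (log2 difference 0.48, FDR = 0.43). These receptors were named after their values were seen.

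**Figure D3:**
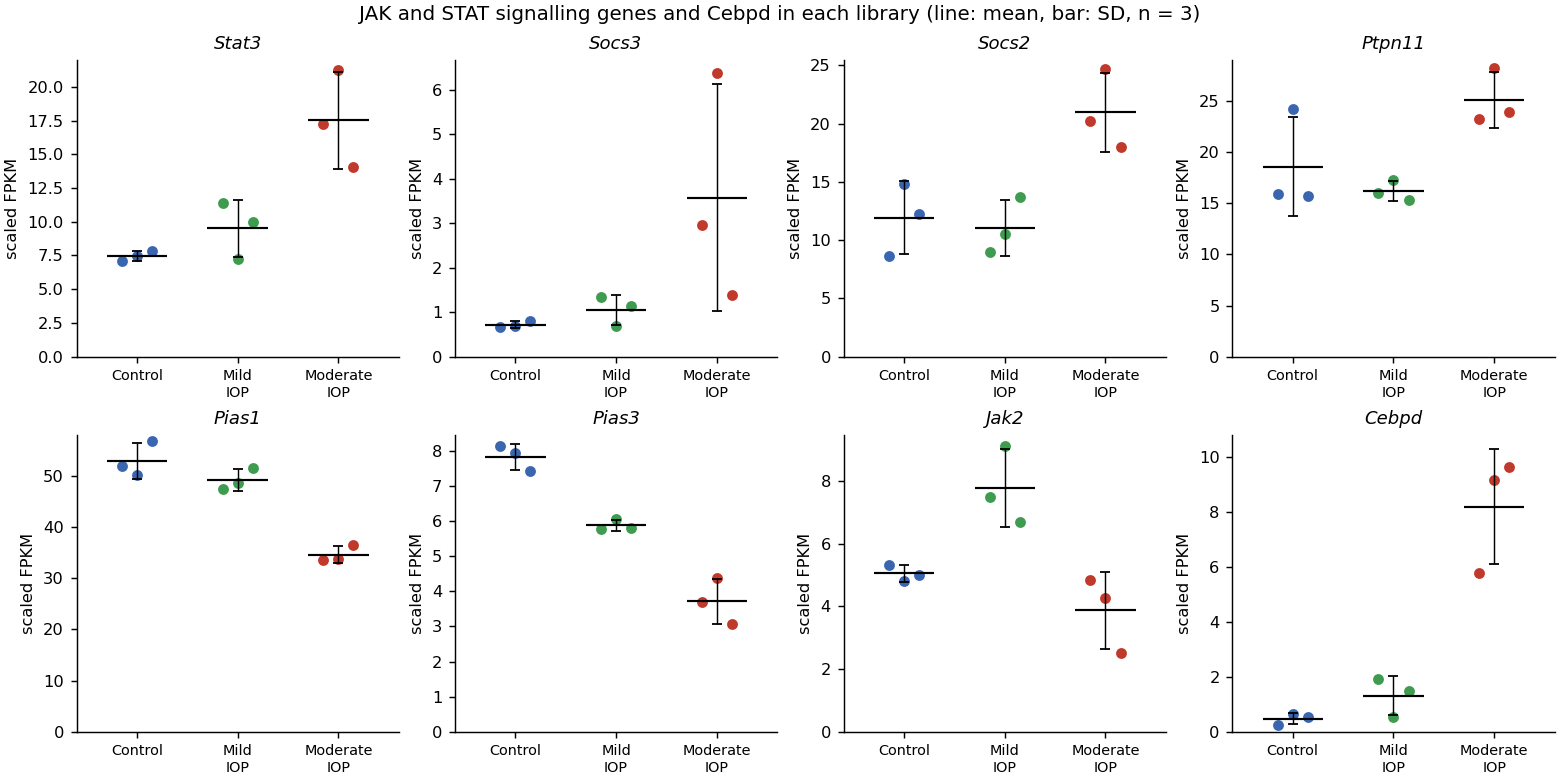
Scaled FPKM (y axes, linear and from 0) in each library for Stat3, Socs3, the called JAK and STAT genes described above and Cebpd. Points show replicates 1 to 3, a line the mean and a bar the SD. Stat3, Socs2 and Cebpd lie higher in every Moderate IOP replicate than in every Control replicate and Pias1 and Pias3 lower, while the Moderate IOP replicates of Socs3 spread from 1.39 to 6.38.

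Glia of the retina also express Stat3 and Socs3, so glial markers are given beside these genes. The summed level of 9 Müller glia markers was between 848 and 894 scaled FPKM in Control, 863 and 913 with Mild IOP, and 961 and 1014 with Moderate IOP. Of 8 tested, 2 rose and 0 fell between Control and Moderate IOP at an FDR below 0.1 (limma), where 0.951% of all tested genes rose. Apoe went from 78.3 ± 3.28 to 126.6 ± 20.7, with 81.2 ± 10.3 in Mild IOP. Rlbp1 went from 4.46 ± 0.16 to 14.5 ± 6.50 and was already at 12.4 ± 4.20 in Mild IOP. Dkk3, the marker with the highest level, had 484.9 ± 16.05 in Control and 422.6 ± 28.8 in Moderate IOP. Gfap, the filament of astrocytes and reactive Müller glia, was low and variable, at 0.798 ± 1.10 (Control), 0.350 ± 0.322 (Mild IOP) and 1.85 ± 1.21 (Moderate IOP). The summed level of 10 microglia and macrophage markers was between 30.2 and 39.3 in Control, 26.5 and 40.9 in Mild IOP, and 44.9 and 50.4 in Moderate IOP. Of these, 0 of 8 tested passed in Moderate IOP against Control. The Müller glia and microglia sums were highest in Moderate IOP, as were Stat3, Socs3 and Sprr1a. This was not particular to glia. The sum of 7 bipolar cell markers was also highest there (90.7 to 102.6, and 60.7 to 79.3 in Control). The sum of 5 astrocyte markers overlapped between Control (1033 to 1255) and Moderate IOP (1139 to 1219). Single markers did not all follow, as Rlbp1 was also higher in Mild IOP than in Control and Dkk3 was lowest in Moderate IOP. Of the microglia markers, C1qb went from a mean of 8.89 in Control to 16.8 in Moderate IOP. Csf1r went from 3.03 to 1.65 and P2ry12 from 0.740 to 0.067. The part of these cells in the result was not tested.

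Gap43 is the gene of the set that RGCs expressed most. It lies on chromosome 16 from 42248561 to 42340651. The Control replicates were at 155, 159 and 145 scaled FPKM, Mild IOP replicates at 156, 115 and 157, and Moderate IOP replicates at 215, 223 and 202. All Moderate IOP replicates were higher than all others, and Mild IOP replicate 2 was lower than any other library. Moderate IOP exceeded Mild IOP by 0.59 on the log2 scale (SE 0.13, FDR = 0.029, limma), a difference that was called in all 18 alternative fits. Between Moderate IOP and Control it was 0.48 (SE 0.13, 95% interval 0.19 to 0.77), with an FDR of 0.14 in limma, which became 0.062 without Mild IOP replicate 2 and lay between 0.11 and 0.28 in the other 17 alternative fits. The interval between Mild IOP and Control ran from −0.41 to 0.18.

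Of the 13 RGC markers, 2 were called higher in Moderate IOP than in Control, beside 0.951% of all tested genes. Against Mild IOP 7 were called higher, beside 7.03% of all tested genes, and 0 were lower in either comparison. Per 100 FPKM of summed RGC markers, Gap43 was 8.55 ± 0.37 in Control, with Mild IOP at 9.52 ± 0.53 and Moderate IOP at 7.83 ± 0.62, and the Control replicates (8.20 to 8.93) overlapped those of Moderate IOP (7.36 to 8.53). Set against this sum, the Gap43 of Moderate IOP was not above that of Control. Against Mild IOP the order turned: every Moderate IOP replicate was below every Mild IOP replicate (8.91 to 9.87). Without Sncg in the sum, tried after the values were seen, Gap43 overlapped between Moderate IOP and each of the other groups. A few abundant markers set the sum also without Sncg. Nefl and Tubb3 had means of 342.5 and 272.6 in Control and 537.1 and 365.1 in Moderate IOP. Pou4f2, at 9.51 and 8.91, adds little to it, and Gap43 was not set against single markers. Stat3 set against the sum of 13 was 0.418 ± 0.021 in Control and 0.645 ± 0.155 in Moderate IOP, without overlap, while Moderate IOP (0.512 to 0.814) overlapped Mild IOP (0.557 to 0.713). The differences of Gap43 and Stat3 between Moderate and Mild IOP were therefore seen relative to all genes and not relative to this sum.

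Socs3, in the same terms, was between 0.0367 and 0.0456 in Control and between 0.0505 and 0.244 in Moderate IOP, and Mild IOP (0.0530 to 0.0840) lay within the range of Moderate IOP. Sprr1a, set against the same sum, was between 0.140 and 0.269 in Moderate IOP and at most 0.0138 in Control. Stat3, Socs3 and Sprr1a were thus above Control in every Moderate IOP replicate under both references, also without Sncg. Klf6 (3.50 ± 0.95 against 5.18 ± 0.50), Klf9 (1.13 ± 0.13 against 1.96 ± 0.16), Klf7 (0.860 ± 0.353 against 1.62 ± 0.24) and Map3k12 (0.435 ± 0.052 against 0.667 ± 0.098) lay lower in every Moderate IOP replicate than in every Control replicate on this scale, although Klf6 overlapped without Sncg, and Sox11 and Klf4 overlapped in both. The marker sum was itself higher in Moderate IOP, so a gene with equal scaled FPKM in both groups falls on this scale. Map3k12 was such a gene, with a mean of 11.9 scaled FPKM in Control and in Moderate IOP. The share of all genes that lie lower on this scale was not computed, so these falls are not a result about the 4 genes. In Mild IOP, Stat3, Socs3, Map3k12 and Klf9 were above Control in every replicate when set against the sum of 13, and all 4 overlapped Control once Sncg was left out.

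**Figure D4:**
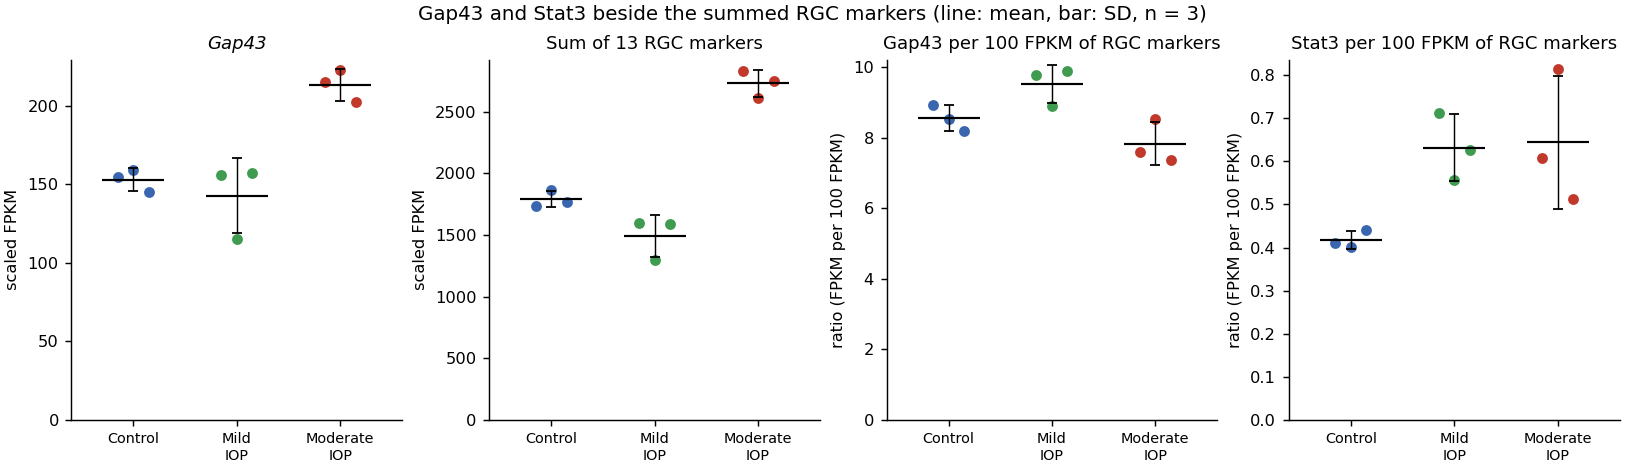
Gap43 and the sum of 13 RGC markers in scaled FPKM (left panels), and Gap43 and Stat3 per 100 FPKM of these markers (right panels), in each library, with y axes from 0, a line for the mean and a bar for the SD. The separation of Moderate IOP from Control seen for Gap43 is absent once it is divided by this sum, which a few abundant markers dominate. Against Mild IOP the order is turned, but the groups overlap without Sncg (not drawn). The Moderate IOP values of Stat3 (0.512 to 0.814) remain above those of Control (0.401 to 0.442).

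Among 19 other growth cone proteins, all of them tested, 3 rose between Control and Moderate IOP, beside 0.951% of all tested genes. Nrn1, a membrane-anchored neurite growth factor, rose from 40.5 ± 2.78 to 68.2 ± 3.16 scaled FPKM, a log2 difference of 0.74 (FDR = 0.043, limma). Basp1, a relative of GAP43 in its membrane function, rose from 315.6 ± 53.1 to 499.1 ± 14.3 (log2 difference 0.67, FDR = 0.051), and Stmn2, a regulator of growth cone microtubules, from 144.6 ± 17.1 to 224.9 ± 21.6 (log2 difference 0.64, FDR = 0.064). The list had a median log2 difference of 0.20 in Moderate IOP and −0.12 in Mild IOP. In Mild IOP 0 passed in the limma test and 2 had an unadjusted p below 0.05, as 10.2% of all tested genes had. The smallest was that of Marcksl1 (log2 difference −0.38, FDR = 0.38). In Moderate IOP 0 genes of the list were called without Control replicate 1, Control replicate 2, Moderate IOP replicate 1 or Moderate IOP replicate 2, and 1 without Moderate IOP replicate 3. Between Mild and Moderate IOP, 8 were higher and 1 was lower in Moderate IOP, beside 7.03% and 3.12% of all tested genes, the latter being the adhesion molecule Ncam1 (log2 difference −0.44, named after its value was seen). The largest differences were those of Stmn2 (0.80, FDR = 0.010), Basp1 (0.79, FDR = 0.010) and Marcksl1 (0.74, FDR = 0.017). The RGC marker level differed between these groups in the same direction, as given above, with Tubb3 in both lists, and its part in these counts was not tested.

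Map3k12, the gene of DLK, lies on chromosome 15 from 102497647 to 102517004. Control replicates were at 11.98, 10.45 and 13.3 scaled FPKM, Mild IOP replicates at 12.1, 15.2 and 15.7, and Moderate IOP replicates at 12.54, 9.92 and 13.3. The groups overlapped, and the log2 differences were 0.25 in Mild IOP (95% interval −0.16 to 0.65, FDR = 0.72, limma) and −0.003 in Moderate IOP (−0.41 to 0.40, FDR = 1.00). A stretch of 2413 nt of its locus, from 102497647 to 102500059, is also part of the gene Pcbp2, and as the library kit does not mark strand, reads of this stretch could be assigned to either gene. Pcbp2 had 15.1 ± 0.30 scaled FPKM in Control and 15.6 ± 2.96 in Moderate IOP.

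Of 18 tested genes of the DLK cascade, a list that holds the related kinase LZK (Map3k13), JNK kinases, JNKs, scaffolds and target factors, 0 passed in any of the 3 comparisons by limma, with 2, 5 and 4 at an unadjusted p below 0.05 in Mild IOP against Control, Moderate IOP against Control and Moderate against Mild IOP, where 10.2%, 15.3% and 21.8% of all tested genes had one. Without Control replicate 3 or Moderate IOP replicate 1, 1 was called in Moderate IOP against Control. The gene with the smallest p in Moderate IOP against Control was Jun, the main target of JNK, with Control replicates at 17.1, 15.9 and 24.3 scaled FPKM, Mild IOP replicates at 20.35, 31.2 and 24.3, and Moderate IOP replicates at 29.25, 35.9 and 32.04. Its Moderate IOP replicates were all above the Control replicates, with a log2 difference of 0.75 (FDR = 0.12). In Mild IOP the smallest p was that of Ddit3, which encodes the stress factor CHOP, with 153.7 ± 14.7 in Control and 111.8 ± 34.6 in Mild IOP (log2 difference −0.50, FDR = 0.43). Mapk8ip2, a JNK scaffold, had the smallest p between Mild and Moderate IOP (log2 difference −0.41, FDR = 0.12). Atf3, an injury-induced partner of Jun, was low in all groups, at 1.27 ± 1.03 (Control), 0.732 ± 0.333 (Mild IOP) and 0.533 ± 0.467 (Moderate IOP, named after its values were seen).

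Sox11, which promotes regrowth in some RGC types, was at the edge of detection. It lies on chromosome 12 from 27334268 to 27342718. Control replicates were at 0.214, 0.132 and 0.0878 scaled FPKM, Mild IOP replicates at 0.123, 0.0158 and 0.4165, and Moderate IOP replicates at 0.0226, 0.03825 and 0.190, and the gene rested on 1 to 21 fragments per library. The groups overlapped, and the highest value was that of Mild IOP replicate 3. Without a filter on low values, the log2 difference was −0.08 in Moderate IOP (95% interval −0.37 to 0.21) and 0.04 in Mild IOP (−0.26 to 0.33). Of 8 other SOX genes, 4 were tested and 0 passed in any comparison by limma. In Mild IOP and between Moderate and Mild IOP, 0 had an unadjusted p below 0.05, beside 10.2% and 21.8% of all tested genes. In Moderate IOP 1 of them had one, beside 15.3% of all tested genes. That gene was Sox12, of the same SoxC group, at 1.66 ± 0.75 (Control), 2.76 ± 0.30 (Mild IOP) and 3.32 ± 0.92 (Moderate IOP), a log2 difference of 0.71 (FDR = 0.26). It also had the smallest p in Mild IOP (0.53, FDR = 0.57), and Sox5 had it between Mild and Moderate IOP (−0.20, FDR = 0.68).

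The Krüppel-like factors differed in level more than between groups. Klf6 (chromosome 13, 5861489 to 5870393) had Control replicates at 81.1, 97.2 and 100.2 scaled FPKM, Mild IOP replicates at 73.9, 65.3 and 77.1, and Moderate IOP replicates at 129.4, 82.1 and 76.2. All Mild IOP replicates were below all Control replicates, a log2 difference of −0.36 (95% interval −0.77 to 0.06, FDR = 0.58, limma). In Moderate IOP, replicate 1 lay apart from the others of its pool, and the log2 difference of 0.01 had an interval from −0.40 to 0.43.

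Klf7 (chromosome 1, 64035671 to 64121389) had Control replicates at 25.6, 27.5 and 33.5, Mild IOP replicates at 16.3, 24.6 and 28.2, and Moderate IOP replicates at 16.6, 32.9 and 20.1. The replicates of Moderate IOP spread 2.01-fold, more than the difference between any pair of group means, and their counting intervals did not all overlap. The log2 differences were −0.34 in Mild IOP (95% interval −0.91 to 0.23) and −0.35 in Moderate IOP (−0.92 to 0.22).

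Klf9 (chromosome 19, 23141226 to 23166911), a brake on axon growth that rises as RGCs mature, was the steadiest gene of the set. Control replicates were at 37.2, 34.7 and 33.3, Mild IOP replicates at 37.5, 33.5 and 34.2, and Moderate IOP replicates at 28.7, 33.0 and 30.6. All Moderate IOP replicates were below all others, by little, and the log2 difference to Control was −0.18 (95% interval −0.47 to 0.10, FDR = 0.53). In Mild IOP it was 0.00 (−0.28 to 0.28, FDR = 1.00), so that a change of 1.5-fold lies outside the interval.

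Klf4 (chromosome 4, 55527137 to 55532475) was not found above 0.401 scaled FPKM in any library. Control replicates were at 0.180, 0.285 and 0, Mild IOP replicates at 0.0456, 0.280 and 0, and Moderate IOP replicates at 0.401, 0 and 0, from at most 8 fragments. The groups overlapped. Without a filter on low values, the log2 difference was −0.04 in Moderate IOP (95% interval −0.42 to 0.34) and −0.06 in Mild IOP (−0.44 to 0.32). Of 13 other Krüppel-like factors, 8 were tested and 0 passed in any comparison by limma. In Mild IOP against Control, Moderate IOP against Control and Moderate against Mild IOP, 1, 1 and 2 had an unadjusted p below 0.05. Of all tested genes, 10.2%, 15.3% and 21.8% had one. The smallest p in both IOP groups was that of Klf16, at 0.992 ± 0.518 (Control), 2.43 ± 0.270 (Mild IOP) and 2.93 ± 0.883 (Moderate IOP, log2 differences of 0.81 and 0.99, FDR = 0.33 and 0.15). Klf15 had the smallest p between Mild and Moderate IOP, with a log2 difference of −0.85 (FDR = 0.10).

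Of 30 other regeneration-associated genes, most of them known from injured sensory neurons or RGCs, 24 were tested, among them Jun, which is also in the list of the DLK cascade. In Moderate IOP 3 rose and 0 fell, where 0.951% of all tested genes rose. In Mild IOP 0 passed by limma and 3 had an unadjusted p below 0.05, as 10.2% of all tested genes had. The smallest was that of Npy, a neuropeptide (log2 difference −0.53, FDR = 0.25). Cebpd, a transcription factor that STAT3 induces, rose from 0.251, 0.646 and 0.542 scaled FPKM in the Control replicates to 5.79, 9.15 and 9.65 with Moderate IOP, a log2 difference of 2.62 (FDR = 0.0038, limma). In Mild IOP it was 1.91, 0.521 and 1.49. Like Stat3 and Socs3, and as noticed after the values were seen, Cebpd had Mild IOP replicate 2 within the Control range and Mild IOP replicates 1 and 3 above it. Spp1, the secreted protein osteopontin, rose from 13.2 ± 2.92 to 28.8 ± 8.68 (log2 difference 1.05, FDR = 0.068), and S100a10, an annexin partner, from 100.3 ± 26.3 to 191 ± 48.2 (log2 difference 0.92, FDR = 0.095). The median of the list was 0.28 in Moderate IOP and −0.10 in Mild IOP. Without a filter on low values, with the spread from the compared groups alone, or without Control replicate 1, Mild IOP replicate 1 or Moderate IOP replicate 1, a single gene of this list was called in Moderate IOP.

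Between Mild and Moderate IOP, 6 of these genes were higher in Moderate IOP and 0 lower, where 7.03% of all tested genes were higher. The largest differences were those of Cebpd (2.02, FDR = 0.0077, limma), S100a10 (1.49, FDR = 0.0071) and Lgals1, a galectin that promotes axon growth (1.34, FDR = 0.010), with means of 34.8 ± 5.33 (Control), 20.5 ± 0.79 (Mild IOP) and 55.7 ± 18.8 (Moderate IOP). The list of the mTOR pathway and myelin-linked brakes, with receptors such as Rtn4r, held 20 tested genes. Of these, 0 passed against Control in either group by limma, with 1 and 4 at an unadjusted p below 0.05 in Mild and Moderate IOP. Of all tested genes, 10.2% and 15.3% had one. The smallest p was that of Trp53 in Mild IOP (log2 difference −0.57, FDR = 0.44) and of Rhoa, a GTPase that mediates growth cone collapse, in Moderate IOP (144.4 ± 21.3 in Control and 102.2 ± 6.98 in Moderate IOP, log2 difference −0.49, FDR = 0.12). Between Mild and Moderate IOP, 1 differed, Tsc1, an inhibitor of mTOR, with a log2 difference of −0.69 (FDR = 0.095), where 10.2% of all tested genes differed. Without scaling factors 5 genes of this list differed between Mild and Moderate IOP, and with upper-quartile factors 4 did.

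**Figure D5:**
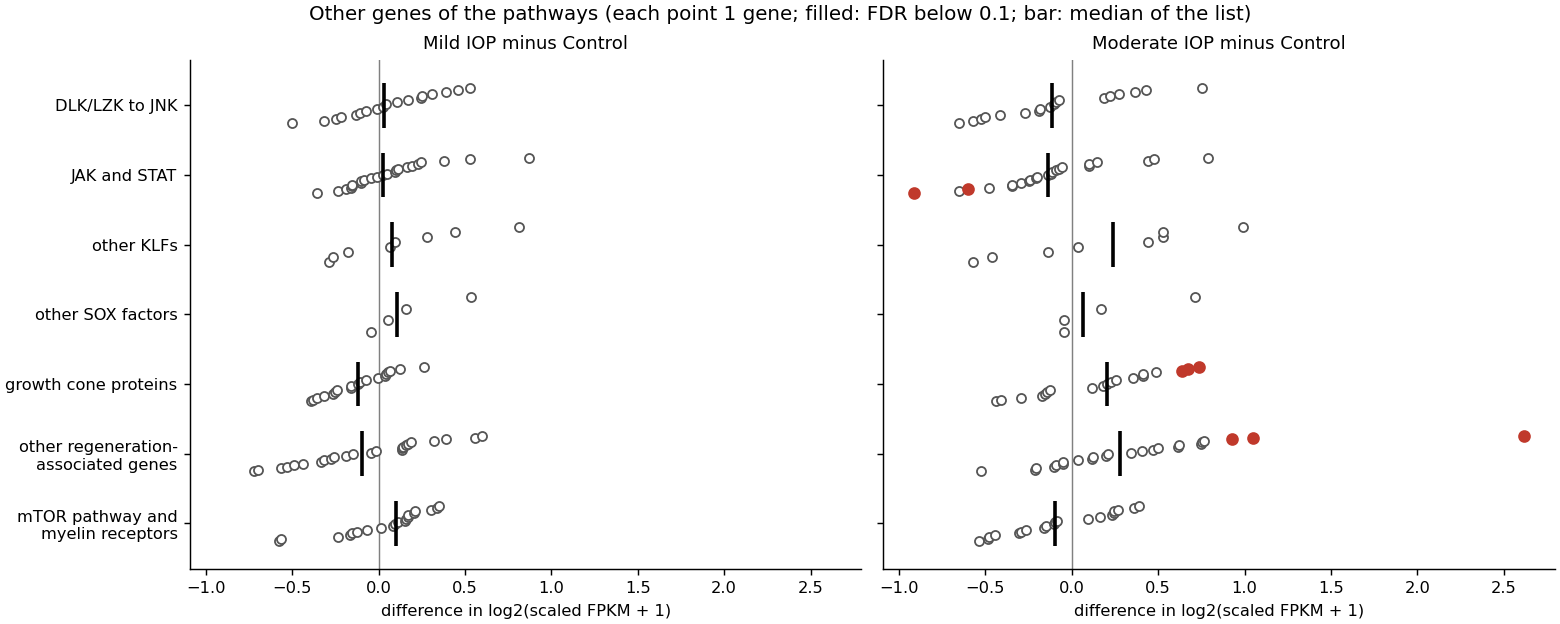
Difference in log2(scaled FPKM + 1) from Control for each tested gene (points) of 7 lists (rows) in Mild IOP and Moderate IOP, with filled points for an FDR below 0.1 and a vertical bar for the median of the list. No point is filled in Mild IOP, and the filled points of Moderate IOP are Pias1 and Pias3, Nrn1, Basp1 and Stmn2, and Cebpd, Spp1 and S100a10.

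Profiles most like that of Stat3, by the same measure as for Sprr1a over the 9 libraries, were those of March9 (0.089), Cdc26 (0.13) and Cdk5r2 (0.14), beside a mean absolute deviation of 0.45 for Stat3 itself. For Gap43 they were Atraid (0.046), Ndufv2 (0.065) and Ywhah (0.072), beside 0.24 for Gap43 itself. Atraid had means of 157.7 scaled FPKM (Control), 152.1 (Mild IOP) and 224.2 (Moderate IOP).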

How the data were processed

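RNA from immunopanned mouse RGCs was sequenced in 9 libraries, 3 technical replicates of 1 pool for each of Control, Mild IOP and Moderate IOP, and groups were taken from the sample titles. The authors aligned reads to mm10 and estimated expression with cufflinks. The methods name bowtie2 as the aligner, and the submitters' processing notes name TopHat2. FPKM and its confidence bounds were deposited for every locus, as the authors estimated them in each library on its own. FPKM of loci with 1 symbol were summed, and 2 symbols with a failed estimate were left out.

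Fragments behind a value were derived as (2 × FPKM / (upper bound − FPKM)) squared. Depth was derived from genes with a single GENCODE M21 transcript of at least 2000 nt, at least 100 fragments and under 100 FPKM. Values were divided by median-of-ratios factors and log2-transformed with a pseudocount of 1, and limma 3.58.1 (R 4.3.3) was fitted to 13043 genes whose mean was 0.5 or more (variance trend, all 9 libraries), with Benjamini-Hochberg FDR over all of them and a threshold of 0.1 as in the study. The fit was tested on simulated data. Figures were made with matplotlib 3.10.9 in Python 3.11.15.

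The 10 genes and the lists were chosen with earlier results of these data known. Some single genes are not reported here and were left out of the lists. Named list genes are, per list and comparison, at most the 3 called genes with the largest difference, or the gene with the smallest p where none was called; others are marked. For called genes of the set, the 3 most similar profiles are named. Alternatives covered scaling, pseudocount, filter, failed estimates, locus choice, the groups entering the spread, a replicate block and leaving out each library.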

Additional observations from a re-analysis of the deposited data

Results flagged for a closer look

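Gap43, Stat3 and Sprr1a stood out because their levels differed between the Moderate IOP pool and the Mild IOP pool in a direct test (limma, FDR below 0.1). Gap43 was not called against Control in either IOP group. The log2 difference between Moderate and Mild IOP was 0.59 for Gap43, 0.82 for Stat3 and 2.45 for Sprr1a. Each was higher in every Moderate IOP technical replicate than in every Mild IOP one, as were 14.5% of all tested genes. Set against the sum of 13 RGC markers, Gap43 was lower in every Moderate IOP replicate (7.36 to 8.53 per 100 FPKM of markers) than in every Mild IOP replicate (8.91 to 9.87). Without Sncg in the sum, tried after the values were seen, these replicates overlapped, with a log2 ratio of −0.06 in place of −0.28. Set against the sum of 13, Stat3 overlapped (0.512 to 0.814 and 0.557 to 0.713), while Sprr1a remained higher (0.140 to 0.269, and at most 0.0196 in Mild IOP). Sprr1a was tested only because of its Moderate IOP libraries, and with no filter on low values its FDR between Moderate and Mild IOP was 0.014. The comparison is between pools, so that variation between animals does not enter it.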

How the results depend on the processing

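Every comparison was refitted under 18 alternatives, 9 of them leaving out a library. Sprr1a kept its call against Control and against Mild IOP in all of them, with log2 differences of at least 2.18. It passed the filter on low values only through its Moderate IOP libraries, and every fit reuses the same pools. Its constant call is therefore no independent support. Gap43 kept its call against Mild IOP. Stat3 was called in 15 of 18 in both comparisons. The number of genes of the set called in Moderate IOP against Control was 2 in each alternative other than those leaving out a library, where it ranged from 1 (without Control replicate 1, Control replicate 2 or Moderate IOP replicate 2) to 3 (without Mild IOP replicate 2 or Moderate IOP replicate 3). Between Moderate and Mild IOP it ranged from 2 to 4 when a library was left out and was 3 otherwise, and in Mild IOP it was 0 throughout. Over all genes, the calls in Mild IOP numbered 52 and became 24 without a filter on low values, 11 with the spread from the compared groups alone and 25 with the replicate block, and ranged from 15 (without Mild IOP replicate 2) to 183 (without Mild IOP replicate 3). In Moderate IOP they numbered 240 and became 134 with the compared groups alone and 135 with the replicate block, and ranged from 61 (without Control replicate 1) to 287. Between Moderate and Mild IOP they numbered 1324, ranged from 519 (without Mild IOP replicate 2) to 1399 when a library was left out, and lay between 1009 and 1400 under the other alternatives. The cause of these moves was not tested. The replicate block changed no call of a gene of the set. Deviations from the group means, across genes, correlated between −0.005 and 0.044 in the 9 pairs of same-numbered libraries, with a mean of 0.012, beside −0.006 for the 18 other pairs. Correlations over all genes cannot tell whether same-numbered libraries shared a step that moved only some genes.

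Differences near 0 changed sign. On the log2 scale, Klf9 in Mild IOP was −0.000228 with the highest locus in place of the sum, and Klf6 in Moderate IOP was −0.0251 without a scaling factor and −0.00178 with upper-quartile factors. When a library was left out, Klf9 in Mild IOP ranged from −0.0512 to 0.0423, Sprr1a in Mild IOP from −0.103 to 0.109, Gap43 in Mild IOP from −0.191 to 0.0291, Klf6 in Moderate IOP from −0.22 to 0.158, Map3k12 in Moderate IOP from −0.0857 to 0.113 and Klf7 between Moderate and Mild IOP from −0.284 to 0.191. Set against RGC markers, Gap43 and Stat3 kept their log2 ratios between Moderate IOP and Control when Sncg was left out of the sum (chosen after the data were seen), −0.13 in both cases for Gap43 and 0.63 for Stat3. In Mild IOP the ratio of Gap43 to Control moved from 0.16 to −0.06 and that of Stat3 from 0.60 to 0.38. Sox11, Klf4, Sprr1a and Socs3 rest on few fragments and are limited by depth.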
